A study of Mus musculus with 18 samples.

Results

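The genes described here are 34 mouse genes of the unfolded protein response and the integrated stress response, chosen by name from the 47729 gene identifiers of the deposited table. They fall by role into 13 chaperones and folding factors of the endoplasmic reticulum (ER), 4 genes of ER-associated degradation, 5 stress sensors and transcription factors, and 12 genes of the branch run by the transcription factors ATF4 and CHOP. Each of the 34 symbols matched 1 identifier of the table.

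The study profiled liver RNA from mice of 3 genotypes (Wt, Il22-/- and Il22bp-/-) after sham surgery or after liver ischemia reperfusion (IR), in which blood flow is stopped and then restored. The cytokine IL-22 signals to hepatocytes and epithelial cells, and IL-22BP is a soluble protein that binds and blocks it. The labels list 18 samples, 3 for each of the 6 combinations of genotype and surgery, and give neither the age of the mice nor the duration of ischemia and reperfusion. The table has 9 columns headed IR1 to IR9 and 9 headed W1 to W9. IR was read as ischemia reperfusion and W, by elimination, as sham surgery. No header gives a genotype, so each group of 9 libraries should hold all 3 genotypes, 3 libraries of each, and a difference between genotypes cannot be told apart from the spread within a group. Whether the mice lacking Il22 or Il22bp responded otherwise than wild-type mice was not tested. The labels do not say that the samples came from separate animals, so the p-values below measure the spread between these samples.

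The unfolded protein response is set off when unfolded proteins gather in the ER, the compartment where secreted and membrane proteins are folded. It has 3 sensors in the ER membrane: ATF6, which is cut to release a transcription factor, IRE1 (gene Ern1), which splices the Xbp1 messenger RNA, and PERK (gene Eif2ak3), which phosphorylates the translation factor eIF2alpha. Cleaved ATF6 and spliced XBP1 raise chaperones and degradation factors, while phosphorylated eIF2alpha slows translation in general and favours that of ATF4. ATF4 raises genes for amino acid supply and for CHOP (gene Ddit3), and other eIF2alpha kinases that sense amino acid shortage, heme shortage or double-stranded RNA feed into it as well, which is why that arm is called the integrated stress response. Hepatocytes secrete most plasma proteins and hold much ER. Gene counts do not show Xbp1 splicing, ATF6 cleavage or ATF4 translation, so what follows concerns RNA levels alone.

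The ATF6 and ATF4 arms act through different DNA elements, and these were looked for around the RefSeq start of each gene (250 bases before it and 50 after it, GRCm38.p6), which the sequence table gave for 31 of the 34 genes and not for Atf6, Hyou1 or Manf. The ER stress element, read by ATF6 together with NF-Y, was searched on both strands as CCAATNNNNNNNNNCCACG. It was found in 7 of the 31 windows and in 0.119% of the 32851 windows in the table. The 7 genes were Hspa5, Hsp90b1, Calr, Pdia6, Dnajc3 and Creld2, which make up 6 of the 11 chaperone genes with a window, and the degradation gene Syvn1. None of the 12 genes of the ATF4 and CHOP branch held it. The sites in the main ER chaperone, in the 2 genes with the largest differences among the chaperones and the degradation genes, and in the chaperone gene with the smallest one are shown, with the fixed bases of the element in capitals.
Hspa5, chr2:34772021-34772047, plus strand: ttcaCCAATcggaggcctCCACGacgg
Creld2, chr15:88819516-88819542, minus strand: tggaCCAATtgaggctcgCCACGagaa
Syvn1, chr19:6046528-6046554, plus strand: gcaaCCAATcggcggtagCCACGggaa
Dnajc3, chr14:118937823-118937849, plus strand: acaaCCAATcagcgccaaCCACGaccc
The second form of this element, ATTGGNCCACG, which shares CCACG with it, was found in 2 windows, those of Herpud1 and Dnajb11, against 0.0365% of all windows. The XBP1 element TGACGTGG, whose reverse complement also holds CCACG, was found in 0 of the 31 windows and in 0.676% of all.

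The C/EBP-ATF response element, the site of ATF4 and its partners, was searched as TGATGNAA. It was found in 6 windows, those of Asns, Chac1, Fgf21, Trib3, Vldlr and the degradation gene Herpud1, against 3.97% of all windows, and so in 5 of the 12 genes of the ATF4 and CHOP branch and in none of the 11 chaperone genes. Sites of that branch are shown because the RNA of these 5 genes differed in direction and in size, with the fixed bases in capitals.
Asns, chr6:7693221-7693236, minus strand: cacaTGATGaAActtc
Chac1, chr2:119351045-119351060, minus strand: ggagTGATGcAAcggc
Fgf21, chr7:45615618-45615633, plus strand: cggaTGATGcAAtggg
Trib3, chr2:152344035-152344050, plus strand: cggcTGATGtAAacct
Vldlr, chr19:27216816-27216831, minus strand: gcgcTGATGcAActat
Each run is written 5′ to 3′ on the strand named. Of all 16 sites found in the members, 12 lay outside the GENCODE models of their gene and 4 overlapped an exon in those models, namely the sites of Hspa5, Asns, Vldlr and Dnajb11. A match describes these letters and says nothing of whether a factor was bound.

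The values are counts that the authors had divided by size factors, and the reads behind them could be recovered as whole numbers. Each library had between 10176617 and 12558179 recovered reads in the IR group and between 10716890 and 12763837 in the sham group. The first principal component of all tested genes, with 70.3% of the variance, separated the surgeries. Hepatocyte markers were abundant in every library, but their summed level ran from 566519 to 922324 in IR and from 2000820 to 2419180 in sham, and 8 of the 10 fell while 1 rose. Alb, the gene of serum albumin, took 2.86 to 7.48% of the counts in IR and 12.9 to 15.9% in sham. The summed neutrophil markers ran from 341 to 4321 in IR (median 1242) and from 52.8 to 123 in sham, with all 7 tested markers of 10 higher. Of 10 Kupffer cell and monocyte markers 7 fell and 2 rose. Of the tested markers of other cells, 5 of 8 endothelial ones fell and 1 rose, 5 of 8 stellate cell and fibroblast ones rose and 3 fell, 4 of 5 cholangiocyte ones rose, 5 of 6 B and plasma cell ones and 3 of 3 T and NK cell ones fell, and 0 of 3 erythroid ones passed. The plasma cell marker Tnfrsf17 was listed at 0 in all IR libraries, but it was also near 0 in sham (median 0, highest 2.22) and was too low to test. In bulk tissue, fewer cells of a type and less RNA per cell cannot be told apart. The part of these shifts in the results below was not tested. Libraries IR8 and IR9 had the lowest deposited totals and the largest size factors, at 1.34 and 1.16, and stood apart in the members too, so differences without them are given beside those that they set apart. These totals are sums of counts already divided by the size factors. In recovered reads IR8 was the highest of the IR group, at 12558179, and IR9 had 10577814.

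Of the 34 genes, 33 had a mean of at least 10 normalised counts over all libraries and were tested. After IR, 28 of the 33 rose and 1 fell at an adjusted p under 0.05 in limma, and 4 did not pass: Dnajc3, Herpud1, Atf6 and Trib3. Over all 12686 genes tested, 38.3% rose and 37.6% fell under the same rule, so that changes were common in the table as a whole in both directions, while nearly all changes among these genes were rises. With a log2 difference of at least 1 as a further condition, 19 of the 33 rose and 1 fell, against 15.5% and 17.0% of all genes tested. In 19 of the 33 genes all 9 IR libraries lay above all 9 sham libraries, against 19.9% of all genes, and in 0 of the 33 they all lay below, against 20.3%. The median log2 difference was 1.37 over the 33 genes and 0.02 over all tested genes. Scaling all libraries to equal totals moved the median of all genes to 0.25 and the share of higher genes among those called from 50.4 to 61.7%; it left 29 of the 33 genes higher and 1 lower. Without IR8 and IR9 the counts were also 29 and 1, and 22 rose by at least 1.

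**Figure D1:**
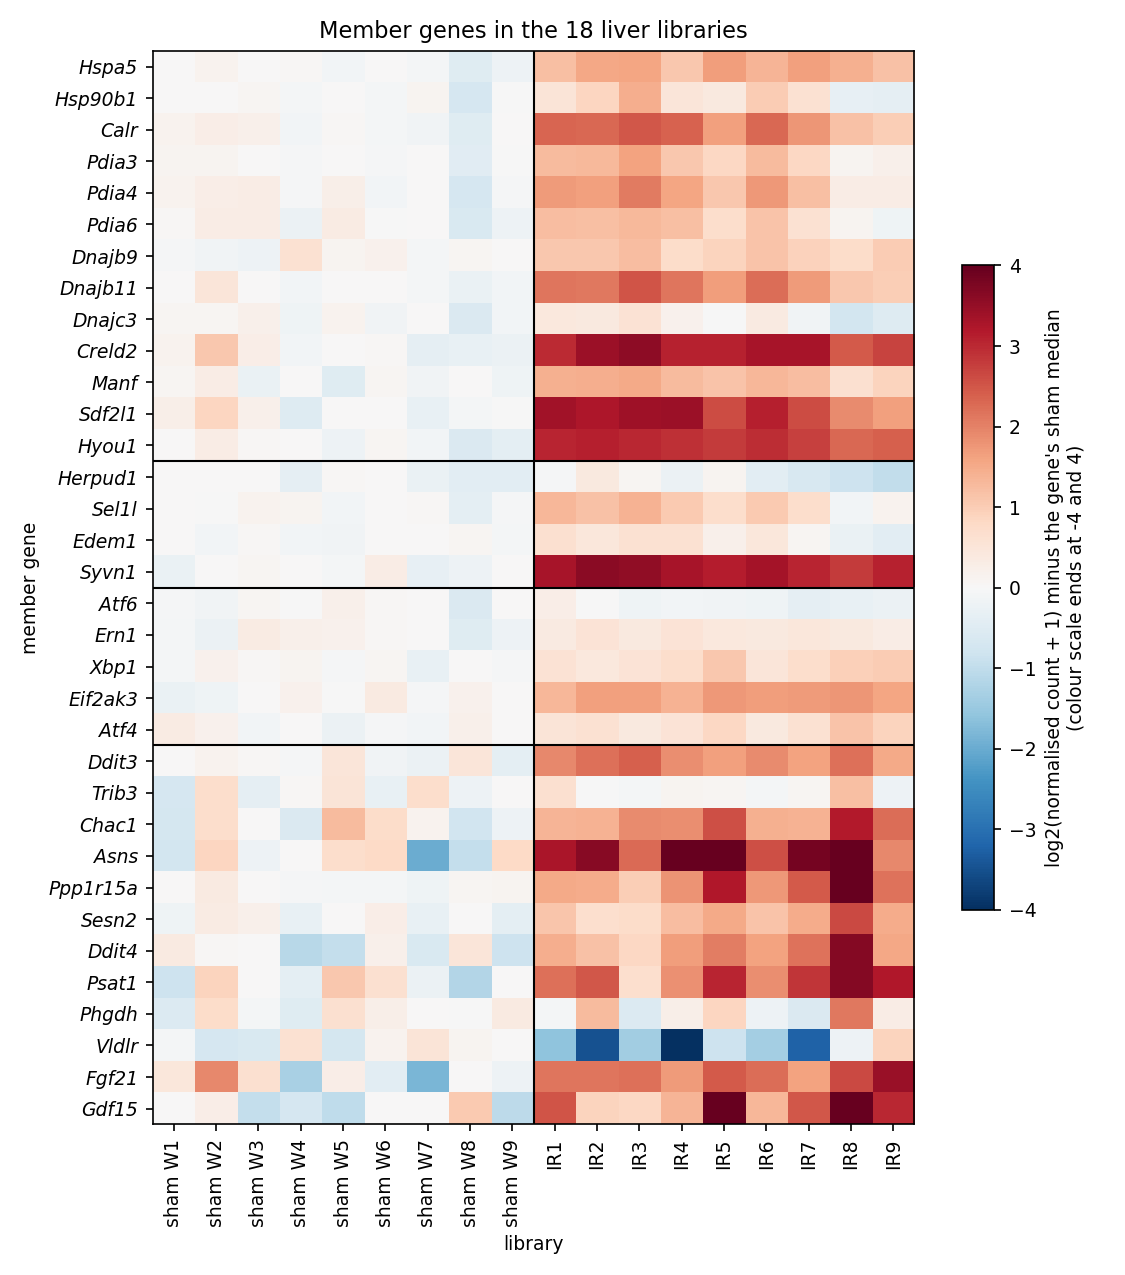
Each row is a member gene and each column a library, sham libraries on the left and IR libraries on the right; the colour is log2(normalised count + 1) minus the median of the gene in the sham libraries, with black lines between the 4 role classes. In 12 of the 13 chaperone rows IR8 is among the 2 lowest IR libraries, and so is IR9, with Hsp90b1 and Dnajc3 below their sham median in both, while Ppp1r15a, Sesn2 and Ddit4 are darkest in IR8; the row of Vldlr is blue in most IR libraries.

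The chaperones and folding factors rose nearly throughout, and the 3 factors Creld2, Hyou1 and Sdf2l1 had larger differences than the abundant chaperones Calr, Hspa5 and Hsp90b1. Of the 13 genes 12 rose, 8 of them by at least 1 on the log2 scale, and in 9 the groups did not overlap; the median log2 difference was 1.29. Hspa5 encodes BiP, the ER chaperone that also holds the stress sensors inactive. Its normalised counts were 19727, 24921, 25418, 17988, 26933, 21632, 26389, 22594 and 19344 in IR1 to IR9. In W1 to W9 they were 8669, 9470, 8619, 8689, 7797, 8501, 8102, 6132 and 7457. The lowest IR library held 1.90 times the normalised count of the highest sham library, and the log2 difference was 1.48 ± 0.11 (SE, n = 9 and 9; adjusted p = 9.4e-11).

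The gene with the largest difference in this class was Creld2, an ER resident protein with disulfide exchange activity, which had between 1707 and 3722 normalised counts in IR (median 2656) and between 246 and 666 in sham (median 313). It was 8.19-fold higher (log2 difference 3.03 ± 0.17, adjusted p = 4.3e-12). Hyou1, an exchange factor and chaperone related to Hsp70 that works on BiP, ran from 4288 to 7480 in IR (median 6642) and from 584 to 1077 in sham (median 874). The groups were far apart, with a 7.46-fold difference (log2 2.90 ± 0.13, adjusted p = 1.2e-13). Sdf2l1, which joins the DNAJB11 co-chaperone in a complex, ran from 962 to 3318 in IR (median 2680) and from 216 to 561 in sham (median 310), and its log2 difference was 2.76 ± 0.24 (adjusted p = 2.8e-09). Its lowest IR values came from IR8 and IR9, and without these libraries the difference was 3.06.

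Calr encodes calreticulin, the calcium-binding lectin chaperone of glycoproteins. It ran from 11346 to 32600 in IR (median 28114) and from 4100 to 6910 in sham (median 5779), with a log2 difference of 1.95 ± 0.19 (adjusted p = 9e-09). Per kilobase of annotated exon, the median level of Calr was 2007 normalised counts in sham, below Hsp90b1 (2385) and Hspa5 (2010), and 9762 in IR, where it was the highest of the 34 genes, followed by Hspa5 (5343) and Hsp90b1 (3440). The level per kilobase thus changed its order among the leading chaperones, in which Hspa5 and Calr differed in sham by less than their spread over libraries.

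Dnajb11, a BiP co-chaperone, rose by 1.84 ± 0.17 on the log2 scale, and Manf, a secreted factor that also binds BiP in the ER, by 1.28 ± 0.12. The protein disulfide isomerases Pdia4, Pdia3 and Pdia6, which form and rearrange disulfide bonds, rose by 1.29 ± 0.22, 0.98 ± 0.17 and 0.82 ± 0.19, and the groups overlapped for Pdia4 and Pdia6. Without IR8 and IR9 the differences of these isomerases were 1.57, 1.21 and 1.06. Dnajb9, a co-chaperone that directs proteins to degradation, rose by 0.92 ± 0.10 without overlap. Hsp90b1, the ER form of Hsp90 (GRP94), ran from 7548 to 26056 in IR (median 13870) and from 6094 to 10336 in sham (median 9618). In 7 of 9 IR libraries it was above every sham library, while IR8 and IR9 (7668 and 7548) lay below the sham median. Its log2 difference was 0.59 ± 0.19 (adjusted p = 0.0096), and 0.83 without IR8 and IR9.

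Dnajc3 encodes p58IPK, a BiP co-chaperone, and was the one gene of the class that did not pass. It ran from 2557 to 6308 in IR (median 4791) and from 2793 to 4802 in sham (median 4210), a log2 difference of 0.12 ± 0.16 (adjusted p = 0.51). The 4 highest values and the lowest one came from IR libraries. It was called higher without IR8 and IR9 (0.31, adjusted p = 0.0256) and under scaling to equal totals (0.36, adjusted p = 0.0176).

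Genes of ER-associated degradation, which carries misfolded proteins back to the cytosol, differed widely among themselves. Of the 4 genes 3 rose, 1 of them by at least 1 on the log2 scale, with a median log2 difference of 0.57. Syvn1 encodes HRD1, the ubiquitin ligase at the centre of the pathway. Its normalised counts were 2878, 3532, 3395, 2873, 2569, 2943, 2392, 2009 and 2445 in IR1 to IR9, and lay between 233 and 361 in the 9 sham libraries (median 291). The lowest IR library held 5.57 times the count of the highest sham library, and the log2 difference was 3.28 ± 0.11 (9.73-fold, adjusted p = 3.3e-15). Syvn1 shares 91 exon bases with Mrpl49, and the labels do not say whether strand was used in counting.

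Sel1l, the adaptor that holds HRD1 in its complex, ran from 862 to 2436 in IR (median 1928) and from 720 to 1030 in sham (median 937). It rose by 0.85 ± 0.17 on the log2 scale (adjusted p = 1.1e-04), with IR8 and IR9 inside the sham range, and the difference was 1.09 without them. Edem1, a lectin that picks out glycoproteins for degradation, ran from 1206 to 2548 in IR (median 2218) and from 1485 to 1710 in sham (median 1631). In 7 IR libraries it lay above every sham library and in IR8 and IR9 (1350 and 1206) below every one. The log2 difference was 0.29 ± 0.13 (adjusted p = 0.046), a call that was lost in 14 of 18 fits that left out a library (adjusted p from 0.00399 to 0.0896), and 0.47 without IR8 and IR9.

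Herpud1 encodes HERP, a short-lived membrane protein of the same ligase complex and a widely used marker of the response. Its normalised counts were 3868, 5342, 4225, 3457, 4313, 2995, 2580, 2283 and 2041 in IR1 to IR9, and 4033, 4087, 4101, 3126, 4158, 4090, 3362, 3014 and 3022 in W1 to W9. The IR libraries spread to both sides of the sham range, 3 above it and 4 below it. The log2 difference was -0.14 ± 0.16 (adjusted p = 0.44), and it was 0.10 under scaling to equal totals and 0.04 without IR8 and IR9. Herpud1 held matches to both elements in its promoter window, 52 bases before the start for the second ER stress element and 112 bases before it for the C/EBP-ATF element.

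**Figure D2:**
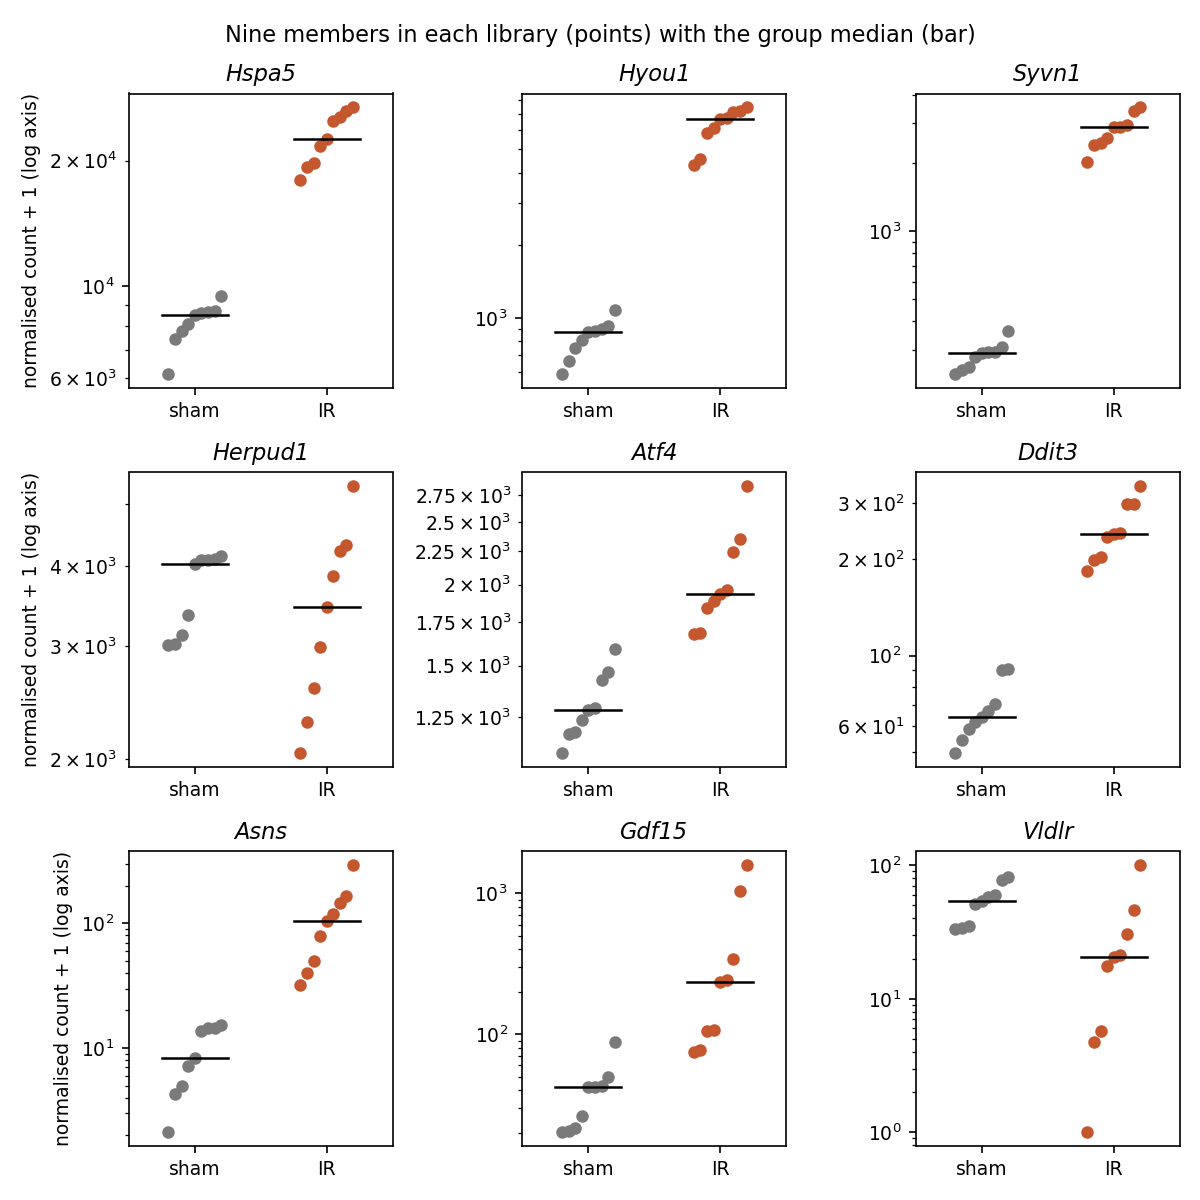
Each panel gives 1 gene, with the normalised count plus 1 of each library on a log axis (points, ordered by value within the group) and the group median as a bar, for 9 sham and 9 IR libraries. The groups are apart for Hspa5, Hyou1, Syvn1, Atf4, Ddit3 and Asns and overlap for Herpud1, Gdf15 and Vldlr.

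Among the sensors and transcription factors the RNA of PERK rose most and that of ATF6 did not pass. Of the 5 genes 4 rose, and the median log2 difference was 0.64; the median was 0.88 under equal totals and 0.54 without IR8 and IR9. Eif2ak3, which encodes PERK, ran from 270 to 365 in IR (median 338) and from 88.2 to 137 in sham (median 107). Its lowest IR library was well above its highest sham library, and the log2 difference was 1.59 ± 0.09 (3.00-fold, adjusted p = 2.6e-12). Ern1, which encodes IRE1alpha, ran from 495 to 596 in IR (median 531) and from 290 to 512 in sham (median 404). In 8 of 9 IR libraries it was above every sham library, with a log2 difference of 0.45 ± 0.09 (adjusted p = 1.8e-04).

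Atf6 ran from 535 to 818 in IR (median 611) and from 454 to 790 in sham (median 683), so that the groups overlapped. Its log2 difference was -0.09 ± 0.10 (adjusted p = 0.39), and 0.15 under equal totals. Xbp1, the RNA that IRE1 splices, was 3581, 3223, 3476, 3911, 5078, 3365, 3931, 4629 and 4865 in IR1 to IR9 and between 1960 and 2701 in sham (median 2403). All IR libraries lay above all sham libraries, with a log2 difference of 0.73 ± 0.10 (adjusted p = 1.1e-06). It was highest in IR5, IR9 and IR8, the libraries in which the chaperones were lowest on average.

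Atf4, the factor whose translation is favoured when eIF2alpha is phosphorylated, had 1840, 1932, 1684, 1887, 2249, 1676, 1964, 2840 and 2351 normalised counts in IR1 to IR9. In W1 to W9 it had 1589, 1426, 1183, 1291, 1098, 1236, 1175, 1467 and 1278. The groups did not overlap but came close, and the log2 difference was 0.64 ± 0.10 (adjusted p = 9.9e-06). The 5 genes of this class were steadier within the IR group than the other classes, with a median SD of 0.18 on the log2 scale in IR and 0.19 in sham.

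In the limma fit the branch of ATF4 and CHOP held both the largest rise and the single fall, and it varied most between libraries. Both of these, Asns and Vldlr, were genes with low counts, and neither place held in every alternative. Of its 12 genes 11 were tested, 9 rose, each by at least 1 on the log2 scale, and 1 fell; in 6 the groups did not overlap. The median log2 difference was 2.07, and the median SD was 0.81 in IR and 0.61 in sham. Ddit3 encodes CHOP, the factor tied to cell death under prolonged ER stress. It had 242, 296, 339, 234, 202, 239, 198, 298 and 183 normalised counts in IR1 to IR9 and between 48.4 and 90.0 in sham (median 63.4). The lowest IR library held 2.03 times the highest sham value, with a log2 difference of 1.88 ± 0.14 (3.69-fold, adjusted p = 1.2e-10). Ddit3 shares 68 exon bases with Mars on the opposite strand. It also shares 105 on its own strand with a second GENCODE gene of the same symbol (ENSMUSG00000116429), for which no row was used here.

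Asns encodes asparagine synthetase, a gene used as a gauge of ATF4 activity. It had 78.4, 104, 39.2, 293, 166, 48.7, 117, 145 and 30.9 normalised counts in IR1 to IR9 and between 1.11 and 14.3 in sham (median 7.34). All IR values lay above all sham values, and the log2 difference of 3.54 ± 0.44 was the largest of the 33 genes (adjusted p = 5.4e-07). Sham libraries held few Asns reads, so the size depends on the pseudocount and the fit. It ran from 2.67 to 3.75 over the 30 alternatives. The difference of Syvn1 ran from 3.24 to 3.52 over them, so Asns was not the largest in all. Psat1, which makes a serine precursor, ran from 38.2 to 313 in IR (median 138) and from 9.88 to 50.8 in sham (median 23.7), with a log2 difference of 2.43 ± 0.36 (adjusted p = 5.8e-06). Phgdh, the enzyme one step before it, was too low to test, from 1.91 to 17.9 in IR and from 1.98 to 6.13 in sham.

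Genes for secreted hormones of the branch rose with overlap. Gdf15, a stress hormone that lowers appetite, had 241, 76.5, 73.4, 106, 1037, 104, 232, 1588 and 339 normalised counts in IR1 to IR9 and between 19.1 and 86.7 in sham (median 41.0). IR5 and IR8 were far above the other libraries and IR2 and IR3 lay inside the sham range, with a log2 difference of 2.74 ± 0.55 (adjusted p = 1.8e-04), and of 2.26 without IR8 and IR9. Fgf21, the hepatic hormone of fasting and amino acid shortage, ran from 45.8 to 165 in IR (median 69.5) and from 3.33 to 57.2 in sham (median 14.3), with a log2 difference of 2.34 ± 0.37 (adjusted p = 1.1e-05).

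Ppp1r15a, Ddit4, Chac1 and Sesn2 rose without overlap between the groups. Ppp1r15a encodes GADD34, which brings a phosphatase to eIF2alpha, and had 221, 217, 152, 266, 708, 254, 421, 1249 and 349 normalised counts in IR1 to IR9. In the sham libraries it lay between 67.7 and 98.0 (median 76.3), and the log2 difference was 2.13 ± 0.30. Ddit4 (REDD1), an inhibitor of mTORC1, ran from 210 to 1493 in IR (median 359) and from 53.5 to 165 in sham (median 117), a log2 difference of 2.07 ± 0.31. Chac1, which breaks down glutathione, ran from 119 to 416 in IR (median 170) and from 26.3 to 112 in sham (median 45.6). It rose by 1.86 ± 0.29, and Sesn2, another brake on mTORC1, by 1.37 ± 0.20. The highest value of Ppp1r15a, Ddit4, Chac1 and Sesn2 was in IR8 for each. Without IR8 and IR9 their log2 differences were 1.86, 1.84, 1.64 and 1.16.

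Trib3 and Vldlr differed from the rest of the branch. Trib3, a pseudokinase and common target of ATF4 and CHOP, ran from 81.6 to 216 in IR (median 98.0) and from 58.5 to 154 in sham (median 93.5), so the groups overlapped (log2 difference 0.14 ± 0.20, adjusted p = 0.54). Vldlr, a lipoprotein receptor, had 16.7, 3.78, 19.6, 0, 29.5, 20.2, 4.77, 45.4 and 99.7 normalised counts in IR1 to IR9 and between 32.3 and 80.8 in sham (median 52.9). In 7 IR libraries it was below every sham library, while IR9 was above every one. The log2 difference was -1.81 ± 0.64 (adjusted p = 0.015), and it was -2.45 without IR8 and IR9. At these low counts the fall was not called by edgeR (-0.99, adjusted p = 0.0842) or DESeq2 (-0.99, adjusted p = 0.115) on the recovered reads, and over 29 alternatives its adjusted p ran from 8.14e-04 to 0.115.

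**Figure D3:**
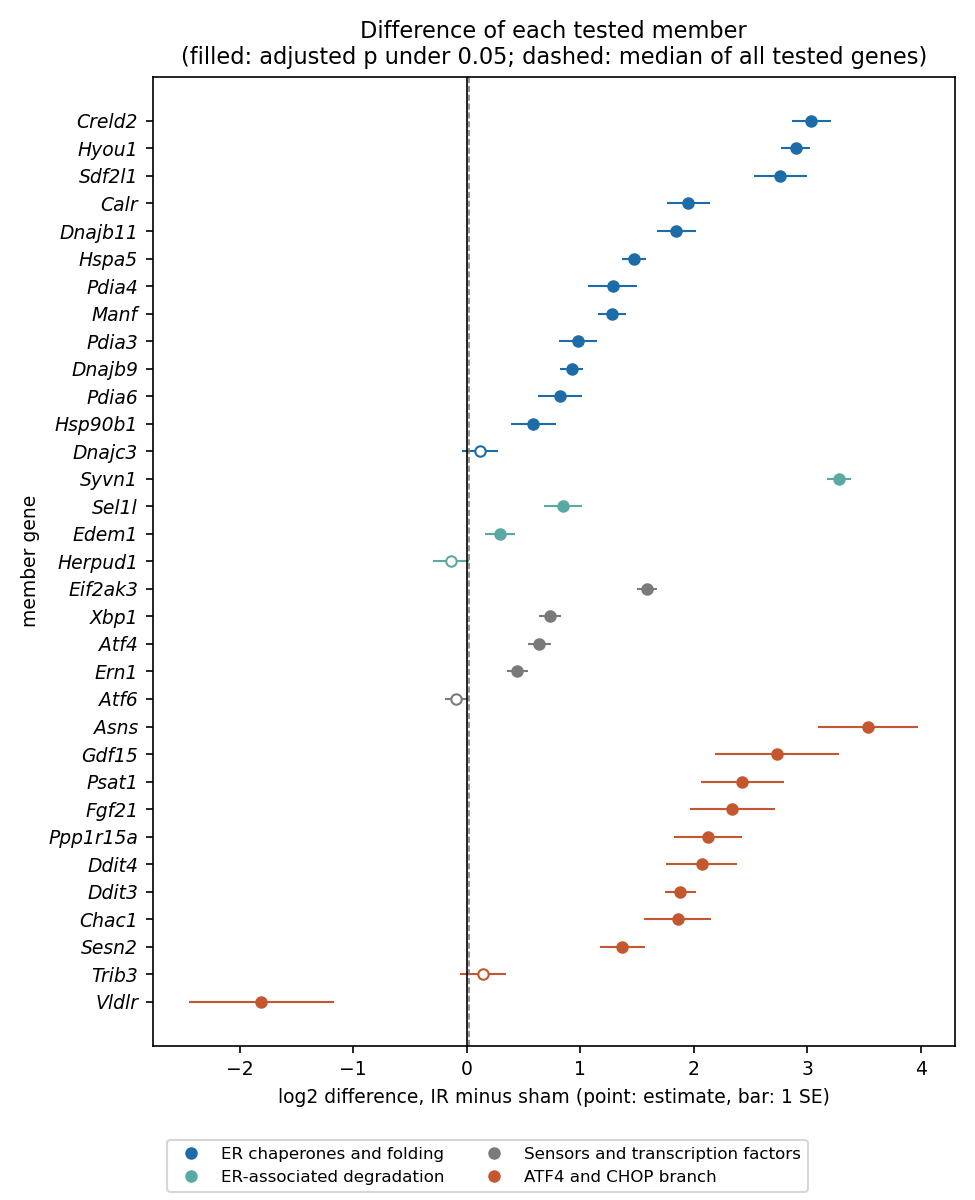
Log2 difference (IR minus sham) of each tested member by class, with bars of 1 SE; filled points have an adjusted p under 0.05 and the dashed line marks the median of all tested genes. The largest values in the 4 classes are those of Creld2, Syvn1, Eif2ak3 and Asns; the estimates of Herpud1 and Atf6, just below 0, change sign under scaling to equal totals.

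Ratios within a library, which depend on its scaling only through the added pseudocount, set genes of the ATF4 and CHOP branch against Hspa5. Hspa5, with a log2 difference of 1.48, was the only reference. Differences of the 13 chaperones ran from 0.12 to 3.03, a range that held those of Ddit3 (1.88) and Ppp1r15a (2.13). Ratios to other chaperones, and ratios of Trib3 and Vldlr, were not tested. The log2 ratio of Asns to Hspa5 was 2.06 higher in IR (exact permutation test over 48620 regroupings, two-sided, adjusted p = 0.0017 over 3 ratios), with 7 of 9 IR libraries above every sham library. It passed under each of 20 alternatives, but its size depended on the pseudocount and was 1.20 with a pseudocount of 8 (exact adjusted p = 0.00987). The ratio of Ddit3 to Hspa5 was 0.41 higher on the log2 scale (exact adjusted p = 0.0471), with 0 of 9 IR libraries above the highest sham library, and that of Ppp1r15a was 0.65 higher (exact adjusted p = 0.0471), with 5 of 9 above. Neither of these passed without IR8 and IR9 (0.39, exact adjusted p = 0.121, and 0.35, exact adjusted p = 0.172), and leaving out single libraries ended the call in 13 of 18 fits for Ddit3 and 14 of 18 for Ppp1r15a.

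Within the IR group the chaperones and the ATF4 and CHOP branch were ordered differently over the libraries. The mean log2 level of the 13 chaperones, relative to the sham median of each gene, was 1.75, 1.82, 2.03, 1.66, 1.43, 1.78, 1.47, 0.85 and 0.86 in IR1 to IR9. For the 11 tested genes of the ATF4 and CHOP branch it was 1.50, 1.15, 1.03, 1.17, 2.25, 1.30, 1.52, 2.94 and 1.94. Vldlr, low in counts, entered these means at -5.75 in IR4, -3.50 in IR2 and -3.22 in IR7, its lowest values, and at 0.90 in IR9, its highest. The placing of IR4, IR2 and IR7 thus rests in part on this gene, and means without it were not taken. IR3 had the highest chaperone mean and the lowest mean of the ATF4 and CHOP branch, and IR8 had the reverse. The chaperone mean minus the other was thus 1.00 in IR3 and -2.09 in IR8, while the 9 sham libraries stayed between -0.31 and 0.29. By gene, IR8 and IR9 were each among the 2 lowest IR libraries in 12 of 13 chaperones and IR3 was the highest in 10 of 13, while IR8 was the highest in 7 of 11 genes of the other branch and among the 2 highest in 10. Genotype is not known for these libraries.

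Other measures moved over the same libraries. The summed neutrophil markers were 341 in IR3, the lowest of the IR group, and 4321 in IR8, the highest, with 2674 in IR5 and 2495 in IR7 and 1242 in IR9. The size factor was 1.02 in IR3, 1.34 in IR8 and 1.16 in IR9. The summed hepatocyte markers were 835365 in IR3, 618686 in IR8 and 834471 in IR9. Erythroid markers summed to 133 in IR3 and 2819 in IR8, the lowest and the highest of the IR group. Cholangiocyte markers summed to 850 in IR3, the lowest, and 7290 in IR8, below IR5 (14613) and IR7 (8800). Spp1 and Sox9 made up most of the cholangiocyte sum, with 555 and 229 in IR3 and 11989 and 2374 in IR5. Krt19, Krt7 and Epcam reached at most 104 in any IR library. Stellate cell and fibroblast markers (4335) and endothelial markers (2921) were highest in IR8 among the IR libraries, with 2675 and 2499 in IR3. B and plasma cell markers summed to 851 in IR3, 74.5 in IR8 and 52.4 in IR9. The degradation gene Derl3, also on that list, made up most of the sum in IR1 (1553 of 1576) and in IR9 (33.5 of 52.4). Kupffer cell and monocyte markers summed to 4364 in IR3, the highest of the IR group, and 4113 in IR8. T and NK cell markers were at 41.1 in IR3, 42.4 in IR8 and 43.0 in IR9. Their part in the order of the libraries was not tested.

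**Figure D4:**
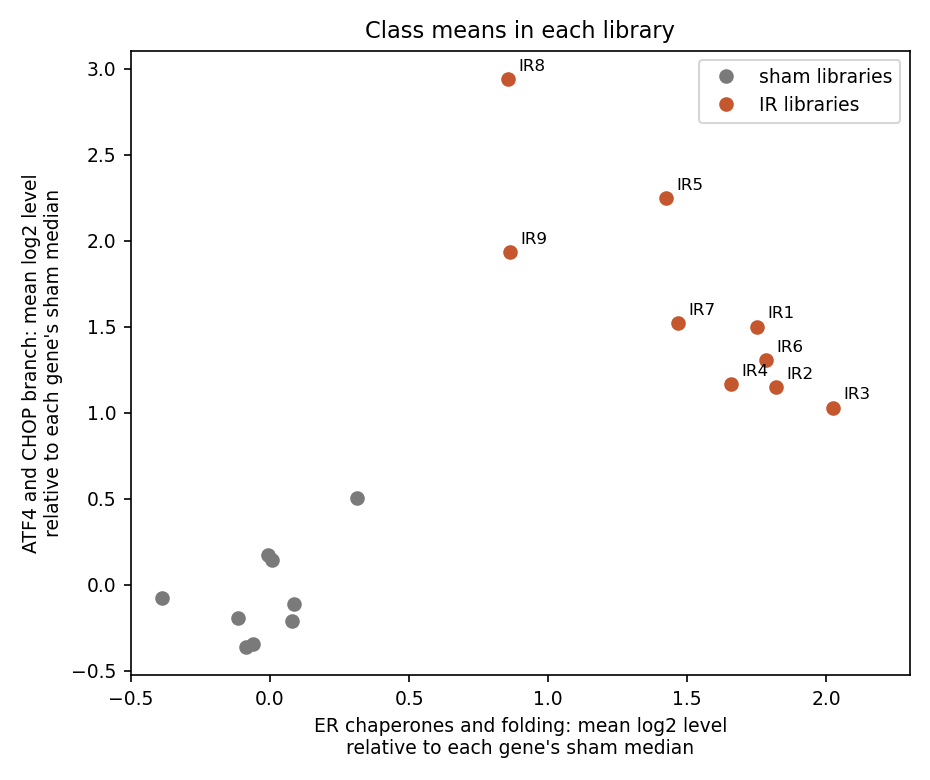
Each point is a library, placed by its mean log2 level of the 13 chaperone genes (x axis) and of the 11 tested genes of the ATF4 and CHOP branch (y axis), both relative to the sham median of each gene. All IR libraries lie above and to the right of the sham libraries, from IR3 at 2.03 and 1.03 to IR8 at 0.85 and 2.94. The y axis mean includes Vldlr, a gene with low counts that was lowest in IR4.

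Within each group, 10 gene pairs were compared over the 9 libraries, giving 20 relations. None passed after adjustment in an exact permutation test, for Pearson's r (lowest adjusted p = 0.266) or Spearman's rho (lowest adjusted p = 0.897), and 2 and 0 relations were under 0.05 before it. These were Hspa5 with Calr in sham (r = 0.82, exact p = 0.0133; rho = 0.57, exact p = 0.121; r = 0.56 without the 2 libraries farthest from the median of the first gene named) and Asns with Psat1 in sham (r = 0.70, exact p = 0.0361; rho = 0.68, exact p = 0.0503; r = 0.84 without the 2 farthest). In IR, Asns and Psat1 had r = 0.26 (exact p = 0.503) and rho = 0.13 (exact p = 0.744), and r = 0.93 (exact adjusted p = 0.0198 over 20) without the 2 farthest libraries. The libraries left out there were IR4 and IR9, the highest and the lowest in Asns, so that value rests on trimming the extremes of 1 gene. The chaperones Hspa5 and Calr had r = 0.02 (exact p = 0.969) and rho = -0.10 (exact p = 0.810) in IR. The 9 libraries of a group share its surgery, and genotype varies among them.

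The wider pathway was read from 96 other genes in 6 lists, of which 93 were tested. Of these 60 rose and 12 fell, with a median log2 difference of 0.62, beside the 38.3% and 37.6% of all genes that rose and fell. The cytosolic tRNA synthetases, which charge amino acids onto tRNAs and include ATF4 targets, moved most evenly: 11 of 12 rose and 0 fell, with Wars at 1.69 ± 0.09, Yars at 1.18 ± 0.08 and Aars at 1.05 ± 0.09 on the log2 scale. Of 14 other tested amino acid genes of ATF4, 9 rose and 1 fell. The cystine transporter gene Slc7a11 had a median of 21.1 normalised counts in IR and 0 in sham, and the mitochondrial folate enzyme gene Mthfd2 rose by 2.31 ± 0.24. Cth, which makes cysteine by transsulfuration and is abundant in hepatocytes, fell from a median of 5637 in sham to 793 in IR (log2 difference -2.80 ± 0.22).

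Among 17 other kinases, phosphatase subunits and transcription factors of the response 9 rose and 3 fell. Atf3, a factor downstream of ATF4, ran from 55.8 in IR3 to 2615 in IR8, above all sham libraries (9.23 to 30.7), and rose by 3.98 ± 0.59 on the log2 scale. Creb3l1 and Creb3l2, membrane-bound factors activated like ATF6, rose by 3.09 ± 0.37 and 2.22 ± 0.13. Creb3l1 was low in sham (median 5.95). Of 18 tested genes of ER translocation and vesicle traffic 13 rose and 2 fell, led by the receptor subunit gene Srprb (2.04 ± 0.12), the retrieval receptor gene Kdelr3 (1.99 ± 0.36) and the channel gene Sec61a1 (1.45 ± 0.09). Kdelr3 had at most 7.15 normalised counts in any sham library and a median of 14.7 in IR. It was tested only through its IR values, and its groups overlapped.

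Of 18 other tested genes of ER folding 10 rose and 3 fell. Wfs1, an ER membrane protein gene induced in the response, rose by 2.08 ± 0.12, and Ficd, which modifies BiP, by 1.53 ± 0.13, while Prdx4, the peroxiredoxin gene of the ER, fell by 1.82 on the log2 scale (SE 0.10). Of 14 other degradation genes 8 rose and 3 fell. Derl3 had the largest difference among them (3.43 ± 0.74) but ran from 33.5 in IR9 to 1553 in IR1, and its gene is also on the list of B and plasma cell markers, in which 5 of the 6 tested genes fell and Derl3 was the one that rose. Edem2 and Os9, a mannosidase-like and a lectin factor of glycoprotein degradation, rose by 1.38 ± 0.15 and 1.09 ± 0.13.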

How the data were processed

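Liver RNA was isolated with Trizol and made into libraries with the NEBNext Ultra kit, per the labels' protocols. Build GRCm38 and the tools DESeq2 1.14, STAR 2.5.0a and Trimmomatic 0.33 are listed in the submitters' processing notes; which program counted the reads, with which annotation and strand setting, was not given in the sources used here. The deposited signal is a gene count that the authors divided by a size factor for each library, which the values bear out: in all 18 columns 100% of the values were whole reads, within 0.01, of one step per library. Such scaling sets levels relative to the other genes of a library, not to cells or tissue mass. All 18 value columns were used.

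Identifiers were paired with GENCODE vM21 symbols (47224 of 47729 matched). Genes with a mean of at least 10 over the 18 columns were tested on log2(normalised count + 1) by limma 3.58.1 (trend and robust options) in R 4.3.3, 9 IR against 9 sham columns, two-sided, with Benjamini-Hochberg adjustment over all 12686 genes. Log2 differences are on that scale, and the added 1 draws those of low genes toward 0. For a low gene the estimate can also be larger than on the recovered reads, as for Vldlr (-1.81, against -0.99 in edgeR and in DESeq2). The fit was tested on simulated data in which few genes changed, equally up and down, with the same dispersion for all genes. That setting does not cover changes as common as those called here. Ratios and correlations were tested by exact permutation in SciPy 1.17.1. Exon bases and coordinates are from GENCODE vM21 and promoter windows from RefSeq (GRCm38.p6); 10 of the 34 genes share exon bases with another annotated gene.

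The members and all lists were chosen with earlier results of these data known. Named in full were Hspa5, the sensors and transcription factors, Ddit3 and the 4 members of each class with the largest absolute difference, and from each other pathway list at most 3 called genes with the largest differences. Other members given by library were chosen after their values were seen. Alternatives were other pseudocounts, filters, scalings and weights, edgeR 4.0.16 and DESeq2 1.42.0 on the recovered reads, a replicate block, and fits without single libraries. The fit without IR8 and IR9 was chosen after seeing the data.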

Additional observations from a re-analysis of the deposited data

Results flagged for a closer look

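The gap of the highest or lowest library to its neighbour, over the range of the group on the log2 scale, was compared with Dixon's critical value for 9 libraries. This was done for the 34 genes and the 3 ratios in each surgery group, 74 groups in all. Chance alone flags about 1 in 20 groups, and the genes share their libraries, so the 11 cases are not independent. In the sham group, W8 was the lowest library for 6 genes and apart from the others: Hsp90b1 had 6094 normalised counts there against at least 9041 in the other sham libraries, Pdia3 had 3489 against at least 4632, and Pdia4 had 1492 against at least 2166. In the same library Dnajc3 had 2793, against at least 3753 in the others, Sel1l had 720, against at least 874, and Atf6 had 454, against at least 622. W2 was the highest sham library for Dnajb11 (1110, the others at most 803) and Creld2 (666, the others at most 377), and W4 for Dnajb9 (923, the others at most 676). In the IR group, IR8 was the highest library for Sesn2 (428, the others at most 198) and Ddit4 (1493, the others at most 526).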

How the results depend on the processing

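Over the 31 settings, the limma fit of the text included, 27 to 29 of the members were called higher, 12 to 13 of the chaperones and 8 to 9 of the ATF4 and CHOP branch. The member called lower, Vldlr, was not called by edgeR or DESeq2 and had too low a mean for the filter of at least 50, so the counts of members lower, of members lower by at least 1 on the log2 scale and of genes lower in the ATF4 and CHOP branch were 0 in these 3 settings. Scaling to equal totals left 6 other pathway genes lower, gave the sensors and transcription factors a median of 0.88, and turned Herpud1 to 0.10 and Atf6 to 0.15. Without IR8 and IR9 that median was 0.54 and Herpud1 was 0.039. The cause was not tested. With a pseudocount of 8 the log2 ratio difference to Hspa5 was 0.30 for Ddit3 (exact adjusted p = 0.0922) 0.56 for Ppp1r15a (exact adjusted p = 0.0922) and 1.20 for Asns (exact adjusted p = 0.00987), and without IR8 and IR9 it was 0.39, 0.35 and 2.15. Leaving out single libraries gave 0.37 to 0.51 for Ddit3 and 0.42 to 0.82 for Ppp1r15a. Without the 2 libraries farthest from the median of the first gene named, r was 0.93 for Asns with Psat1 and 0.029 for Ddit3 with Ppp1r15a in IR. In sham it was -0.33 for Hspa5 with Hsp90b1, -0.11 for Ddit3 with Trib3 and 0.23 for Atf4 with Asns. The columns share header numbers, but same-numbered libraries did not deviate together (r from -0.0983 to 0.125 over 9 pairs, 1 of them over 0.1, and 0 libraries correlated best with their own number). With the header number as a replicate block, 28 members were called higher and 1 lower, and 4818 and 4737 of all genes. On the recovered reads edgeR called 4923 genes higher and 4763 lower, and DESeq2 5009 and 4713. Low counts limit Vldlr, Phgdh and the sham levels of Asns.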
